A study of Danio rerio with 6 samples.

Results

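Collagen chains are hydroxylated on proline and lysine inside the endoplasmic reticulum, before they fold and leave the cell. The genes described here encode the enzymes of that step, their partners and a collagen chaperone, 11 of the 24462 genes in the deposited table. The starting point was P4HA1 (ENSDARG00000071082), chosen because it was lower in exposed embryos. The other 10 identifiers were taken by name: the alpha subunits P4HA2 and P4HA3, the beta subunit P4HB, the lysyl hydroxylases PLOD1, PLOD2 and PLOD3, the prolyl 3-hydroxylase P3H1, its partner CRTAP, and 2 identifiers that share the symbol SERPINH1. A symbol in capitals without a paralogue letter was accepted for plod1a and serpinh1b. Which SERPINH1 identifier is serpinh1b could not be told from the names used, so both are reported. All 11 passed the filter on low values.

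Expression was measured by 3′ RNA sequencing, which reads the 3′ end of each transcript, in whole embryos of the Tropical 5D wild-type zebrafish line. One group was kept from 8 h after fertilization in 47 µM FBSA (perfluorobutane sulfonamide, a fluorinated compound), and the control group in solvent alone. Both groups had 0.5% methanol, lacked the chorion from 4 h onwards and were sampled at 48 h. There were 3 libraries a group, each from a pool of 10 embryos. The labels do not say whether the pools came from separate clutches, so the p-values cover only the spread among pools, which may be technical.

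Prolyl 4-hydroxylase is a tetramer of alpha subunits, which carry the active site, and beta subunits, which are the protein disulfide isomerase P4HB. The 4-hydroxyproline it makes stabilises the collagen helix at body temperature. Lysyl hydroxylases make the hydroxylysine that carries sugars and anchors cross-links between collagen molecules, and P3H1 with CRTAP modifies a few prolines of fibrillar collagens. The hydroxylases need iron, oxygen, 2-oxoglutarate and ascorbate, and in mammalian cells P4HA1, P4HA2 and PLOD2 are known targets of the hypoxia-inducible factor HIF.

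The libraries held 23906021 to 33356411 reads in genes. The values are normalized counts, the reads of a gene divided by 1 size factor per library, recovered from the deposited log2 values. The header of the table names no gene column, so each library name stands 1 cell left of its values. Read without that shift, control replicate 3 would carry an FBSA name. Without that library 53 genes passed the threshold described below, none of them among the 10 identifiers other than P4HA1. On the first principal component of all genes tested, which held 34.3% of the variance, FBSA replicate 2 and control replicate 2 lay at opposite ends. Of 16890 genes tested, 119 passed a limma adjusted p of 0.05, which is 0.705%. Lower genes made up 0.136% of all genes tested and higher genes 0.568%.

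P4HA1, the gene for an alpha subunit of prolyl 4-hydroxylase, had 264, 275 and 276 normalized counts in the 3 FBSA libraries, against 763, 516 and 610 in the 3 control libraries. Every FBSA library lay below every control library. The means were 272 ± 6.77 in FBSA embryos and 630 ± 125 in control embryos (SD, n = 3 each), a log2 fold change of -1.19 ± 0.17 (SE), or 2.28-fold lower. This difference chose the gene and is given as a description, without a test. The FBSA libraries lay closer together than the control libraries: their coefficient of variation was 2.49%, against 19.8% in control. Counting error alone gives 5.87% at the mean of 3 FBSA libraries, whose reads ran from 272 to 305, and 3.99% in control, where reads ran from 435 to 910. Without control replicate 3 the log2 fold change of P4HA1 was -1.20. In whole embryos, fewer cells that express a gene and less of its RNA per cell cannot be told apart.

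None of the other 10 identifiers passed the threshold in either direction with limma, or with limma-voom on the recovered reads. At an unadjusted limma p under 0.05, 4 of the 10 were lower (P4HA2, PLOD2, P3H1 and CRTAP) and 1 was higher (SERPINH1 ENSDARG00000019949), where 6.25% and 7.34% of all genes tested were. In 2 of the 10, all FBSA libraries lay below all control libraries, and in 1 all lay above; of all genes tested, 9.91% lay below and 10.0% above in this way, or 19.9% together. The log2 fold change was negative for 8 of the 10, with a median of -0.21, against -0.00090 over all genes tested, of which 50.2% were negative. These members were chosen with results of the same comparison known, so the counts describe them and test nothing.

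**Figure D1:**
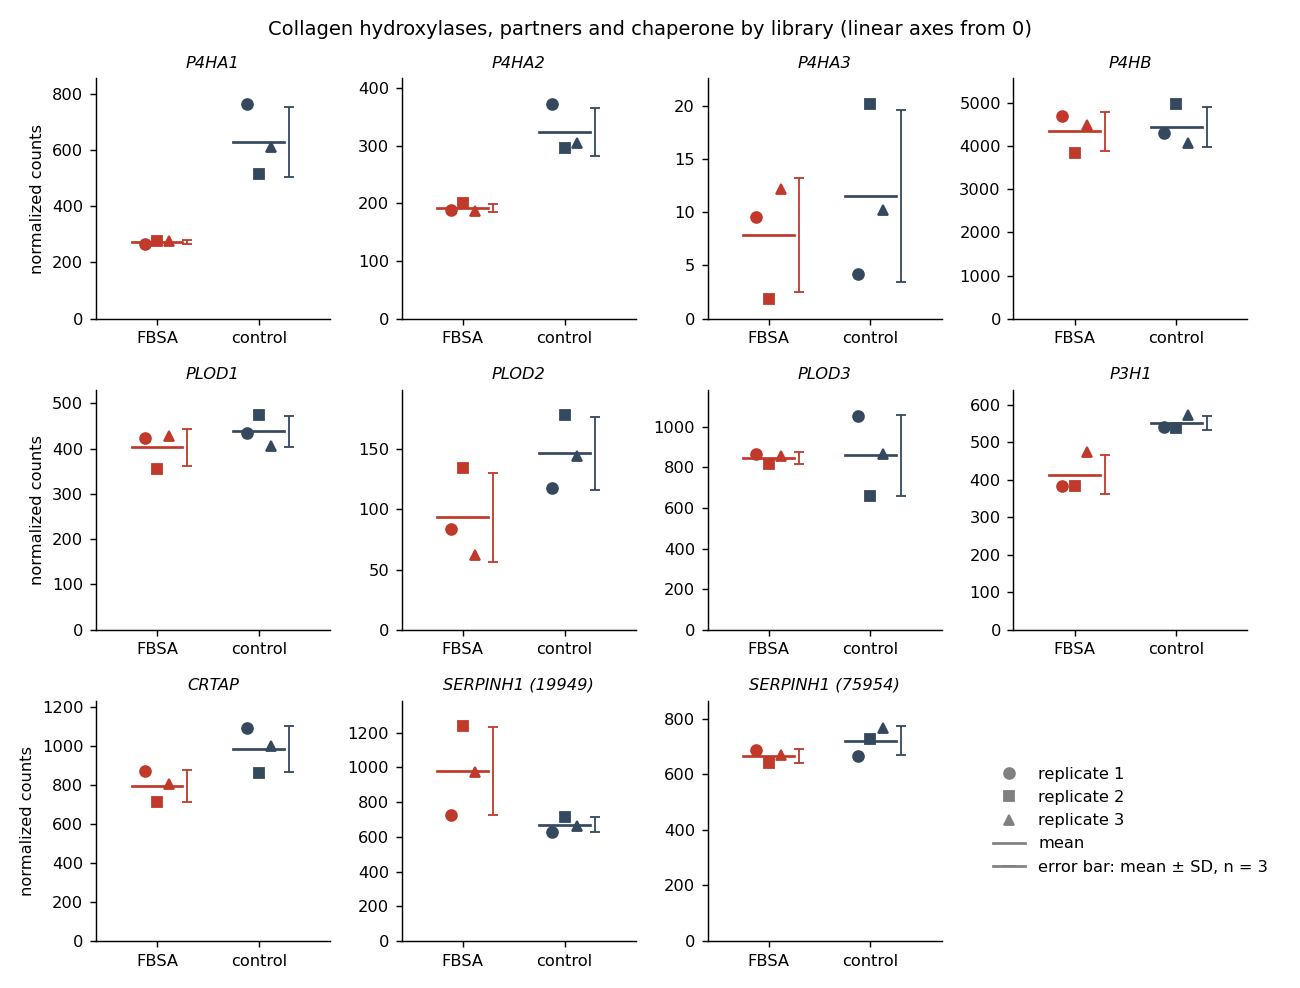
Normalized counts (linear axes from 0) of the 11 identifiers in 3 FBSA libraries (left in each panel) and 3 control libraries (right); points are libraries, lines are means and bars show the SD, and the SERPINH1 panels carry the last digits of their identifiers. P4HA1, P4HA2 and P3H1 have every FBSA library below every control library, and the identifier ENSDARG00000019949 of SERPINH1 has every FBSA library above.

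P4HA2, the gene for another alpha subunit of the same enzyme, came nearest to the threshold. It had 189, 201 and 187 normalized counts in the FBSA libraries, against 372, 297 and 304 in the control libraries. The groups did not overlap, and the coefficient of variation was 3.94% in FBSA against 12.8% in control. Counting error alone gives 6.98% in FBSA and 5.58% in control. The FBSA spread thus lay below counting error, as it did for P4HA1, and is not read as a trait of the exposed embryos. The log2 fold change was -0.75 ± 0.18 (SE), 1.68-fold lower, with a limma adjusted p of 0.0925 and a 95% interval of -1.13 to -0.36. Over the 17 alternative settings P4HA2 stayed between -0.84 and -0.48, with limma adjusted p-values from 0.0765 to 0.225.

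P4HA3, a further alpha subunit gene, was sparsely read, with 2 to 17 reads per library. It had 9.52, 1.88 and 12.2 normalized counts in FBSA and 4.19, 20.2 and 10.2 in control. The groups overlapped, and the 95% interval of its log2 fold change, -2.44 to 1.35, covers large differences in either direction. No difference in P4HA3 was detectable at this depth. The identifier named p4ha1a (ENSDARG00000033537), which is not among the 11, belongs to the same family. It had 94.4, 122 and 87.4 normalized counts in FBSA and 143, 225 and 147 in control, without overlap, with a log2 fold change of -0.74 ± 0.25 (SE; limma adjusted p = 0.229). Reads matching both P4HA1 and p4ha1a could have been split or dropped by the counting, which was not checked.

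P4HB, the beta subunit and a disulfide isomerase that also works on many other secreted proteins, was not called. It had 4696, 3848 and 4486 normalized counts in FBSA, against 4303, 4977 and 4083 in control, and the groups overlapped. Its log2 fold change was -0.04 ± 0.11 (SE; limma adjusted p = 0.916), with a 95% interval of -0.28 to 0.21. The sign turned without FBSA replicate 2 (0.048) and without control replicate 2 (0.046).

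Ratios within a library do not depend on the scaling between libraries. P4HA1, P4HA2 and P4HA3 together gave 9.85, 12.4 and 10.6 reads per 100 P4HB reads in the FBSA libraries, against 26.5, 16.7 and 22.6 in the control libraries. P4HA2 alone gave 4.02, 5.22 and 4.17 reads per 100 P4HB reads in FBSA and 8.65, 5.96 and 7.45 in control. Neither ratio overlapped between the groups. The first includes P4HA1, and P4HA2 was taken with results of this comparison known, so these ratios carry no test.

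Shares within the alpha subunits include P4HA1, so they describe the libraries and carry no test. P4HA1 supplied 57.1%, 57.6% and 58.1% of the reads of these 3 genes in FBSA, against 67.0%, 62.0% and 66.0% in control. The Wilson 95% intervals of these shares reach 2.50 to 4.45 percentage points to either side and cover counting error only. P4HA2 supplied 40.7% ± 1.37 in FBSA and 33.7% ± 1.63 in control (SD, n = 3 each), without overlap. With p4ha1a counted too, the P4HA1 share was 47.4%, 45.9% and 49.1% in FBSA and 59.5%, 48.8% and 56.9% in control, and the groups overlapped. Whether the 2 genes differed in their change was not tested, because P4HA1 was chosen by it.

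**Figure D2:**
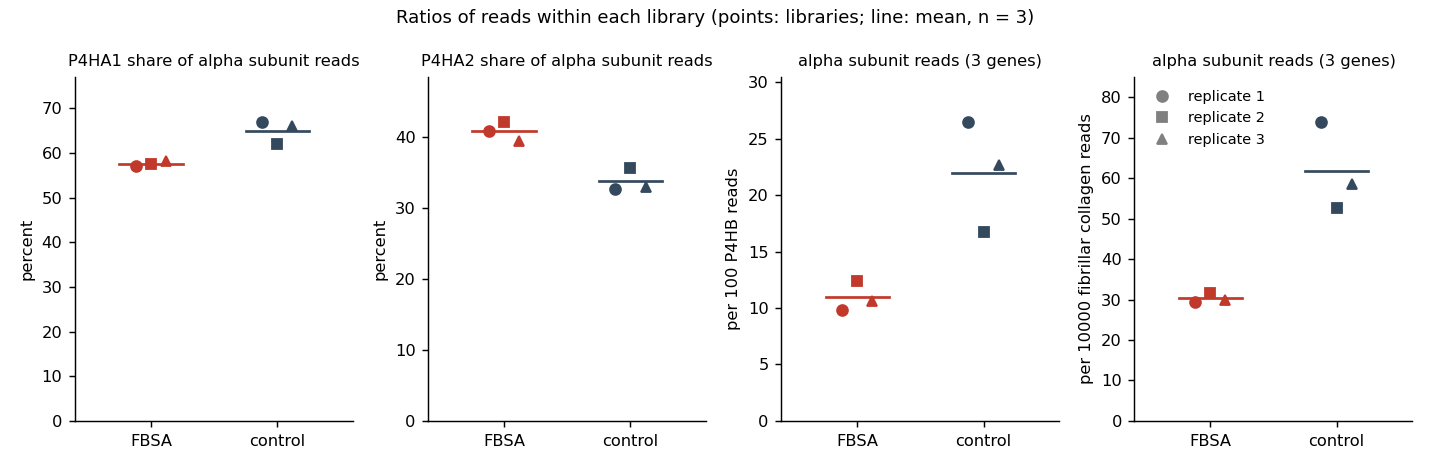
Ratios of reads within each library for FBSA (left in each panel) and control (right), with points for libraries and lines for the means of 3: the shares of P4HA1 and P4HA2 in percent of the P4HA1, P4HA2 and P4HA3 reads, and the reads of these 3 genes per 100 P4HB reads and per 10000 reads of fibrillar collagen genes. The alpha subunit reads per 100 P4HB reads lie between 9.85 and 12.4 in FBSA and between 16.7 and 26.5 in control.

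The lysyl hydroxylases gave no call. PLOD2, which hydroxylates lysines in the telopeptides where cross-links form, had 84.0, 134 and 62.0 normalized counts in FBSA, against 117, 178 and 144 in control. FBSA replicate 2 lay above control replicate 1, so the groups overlapped. The log2 fold change was -0.70 ± 0.30 (SE; limma adjusted p = 0.335), with values from -0.99 without FBSA replicate 2 to -0.44 without FBSA replicate 3. PLOD1 had 424, 355 and 428 normalized counts in FBSA and 433, 473 and 407 in control, with a 95% interval of the log2 fold change from -0.46 to 0.21 (limma adjusted p = 0.759).

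PLOD3, which adds sugars to hydroxylysine besides making it, and whose zebrafish mutant diwanka has defects in motor axon growth, was nearly level. It had 864, 814 and 858 normalized counts in FBSA, against 1052, 657 and 864 in control. The 3 FBSA libraries lay inside the range of the control libraries. Its log2 fold change was 0.0044 ± 0.16 (SE), with a 95% interval of -0.35 to 0.36 (limma adjusted p = 0.995). The sign turned when libraries were scaled by their totals (-0.026), without FBSA replicate 1 (-0.012) and without control replicate 2 (-0.17).

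P3H1, the prolyl 3-hydroxylase whose loss causes brittle bones in humans, had 384, 383 and 474 normalized counts in FBSA, against 541, 540 and 572 in control. The groups did not overlap. The log2 fold change was -0.42 ± 0.15 (SE), 1.34-fold lower, with a 95% interval of -0.74 to -0.10 and a limma adjusted p of 0.240. CRTAP, which forms a complex with P3H1 and cyclophilin B, had 874, 712 and 804 normalized counts in FBSA and 1093, 862 and 1001 in control. Here FBSA replicate 1 lay just above control replicate 2. The log2 fold change of CRTAP was -0.30 ± 0.14 (SE; limma adjusted p = 0.360). P3H1 gave 44.0, 53.8 and 58.9 reads per 100 CRTAP reads in FBSA and 49.5, 62.6 and 57.2 in control, with overlap.

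The other identifiers of the prolyl 3-hydroxylase family, outside the 11, showed no call either. P3H2 had a log2 fold change of -0.07 ± 0.20 (SE; limma adjusted p = 0.903) and P3H3 one of -0.42 ± 0.26 (SE; limma adjusted p = 0.515). P3H3 had 313, 145 and 312 normalized counts in FBSA, against 306, 332 and 340 in control, and FBSA replicate 2 stood apart. Without that library the log2 fold change of P3H3 was -0.06. The gene p3h4, which encodes a relative without known hydroxylase activity, had 8.45 to 29.4 normalized counts in FBSA and 16.8 to 17.8 in control.

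SERPINH1 is the symbol of the collagen chaperone HSP47, which binds folded procollagen and escorts it through the secretory pathway. The identifier ENSDARG00000019949 had 727, 1236 and 975 normalized counts in FBSA, against 629, 716 and 663 in control. Every FBSA library lay above every control library, FBSA replicate 1 by a small margin. The log2 fold change was 0.52 ± 0.18 (SE), with a 95% interval of 0.14 to 0.90 and a limma adjusted p of 0.221. It ran from 0.33 without FBSA replicate 2 to 0.71 without FBSA replicate 1.

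The other SERPINH1 identifier, ENSDARG00000075954, had 687, 639 and 671 normalized counts in FBSA and 665, 728 and 768 in control, with overlap. Its log2 fold change was -0.11 ± 0.13 (SE; limma adjusted p = 0.740). The first identifier gave 106, 193 and 145 reads per 100 reads of the second in FBSA, against 94.6, 98.4 and 86.4 in control. These values are uncertain where reads match both identifiers.

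**Figure D3:**
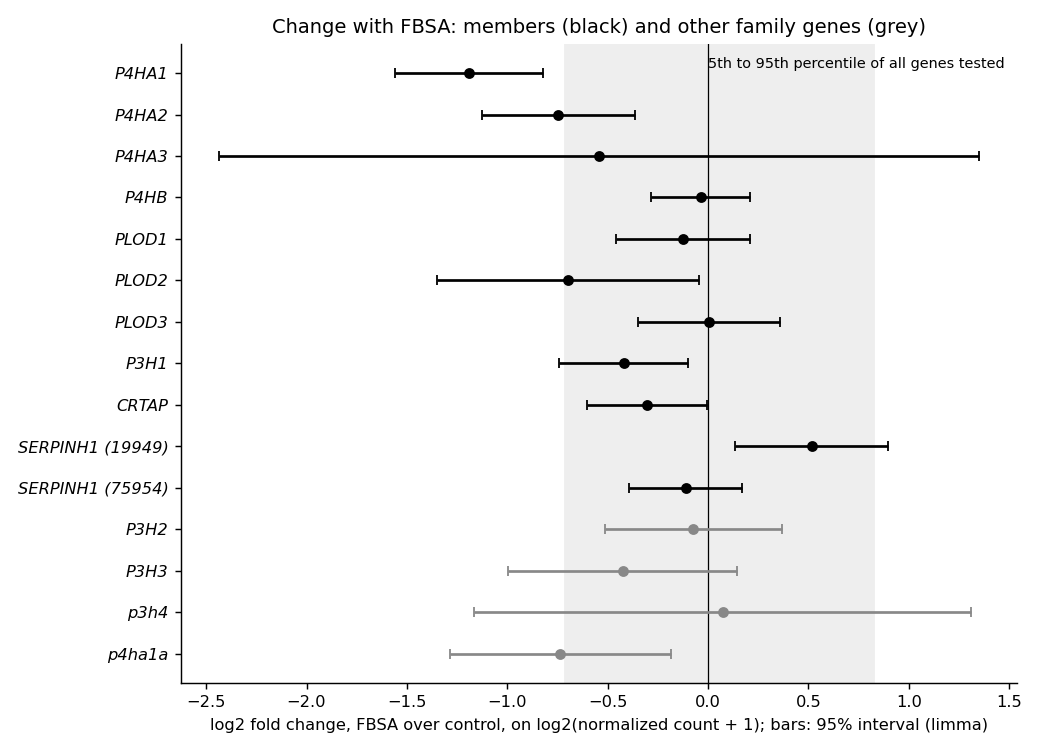
Log2 fold change of FBSA over control on log2(normalized count + 1), with 95% intervals from limma, for the 11 identifiers (black) and the other genes of their families (grey); the band spans the 5th to the 95th percentile of all genes tested, from -0.71 to 0.82. P4HA1, which was chosen for this value, lies at -1.19, P4HA2 at -0.75 and p4ha1a at -0.74, while P4HB, PLOD1 and PLOD3 lie near 0 with intervals on both sides of it.

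Genes with a profile like that of P4HA1 were sought among 9507 genes with a symbol and a mean of at least 100 normalized counts. The measure was the root mean square difference of log2(normalized count + 1) over the 6 libraries, each gene centred on its own mean. The 5 nearest were ntn5 (0.226), P4HA2 (0.237), slc4a10a (0.244), PDCL3 (0.267) and CLSTN3 (0.269). All 5 had every FBSA library below every control library, beside 9.91% of all genes tested, but the search itself favours such genes. In the main fit slc4a10a and CLSTN3 passed (limma adjusted p = 0.0414 for each), while ntn5, P4HA2 and PDCL3 did not. Both lost the call with the replicate number as a block (limma adjusted p = 0.122 and 0.0901). The call of slc4a10a was also lost without any single library (limma adjusted p from 0.0516 to 0.150). That of CLSTN3 was lost without any single FBSA library, control replicate 1 or control replicate 3 (limma adjusted p from 0.0616 to 0.172). Scaling by library totals lost it too (limma adjusted p = 0.0524). In ntn5, for instance, the values were 97.8, 77.9 and 81.3 normalized counts in FBSA and 181, 154 and 142 in control. Because the measure includes the difference between the groups, these genes carry no test.

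Collagen chains are the substrates of these enzymes. Among 13 fibrillar collagen genes tested, none passed in either direction, with 0 at an unadjusted limma p under 0.05 in either direction and a median log2 fold change of -0.07. In 0 of the 13 all FBSA libraries lay below all control libraries and in 1 all lay above, beside 9.91% and 10.0% of all genes tested. The lowest unadjusted p-values were those of COL2A1 (ENSDARG00000011407), a cartilage and notochord collagen, at -0.25 ± 0.13 (SE; limma adjusted p = 0.438), and COL1A1 (ENSDARG00000035809), the main skin and bone collagen, at 0.15 ± 0.085 (SE; limma adjusted p = 0.481). Without FBSA replicate 2 the value for COL2A1 was -0.13, and without control replicate 2 it was -0.12. COL1A1 had 28050, 29836 and 29955 normalized counts in FBSA and 25923, 26310 and 27067 in control, without overlap. The other COL2A1 identifier, ENSDARG00000069093, went the other way, at 0.30 ± 0.19 (SE; limma adjusted p = 0.537). The gene col1a1a, with more counts than this COL1A1 identifier, had -0.06 ± 0.091 (SE; limma adjusted p = 0.821). Of the 13 genes, 9 had a negative log2 fold change and 4 a positive one.

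Set against these collagens, the 3 alpha subunit genes gave 29.5, 31.7 and 29.8 reads per 10000 fibrillar collagen reads in FBSA, against 73.9, 52.6 and 58.6 in control. That ratio includes P4HA1 and only describes the libraries. For P4HA2 alone it was 12.0, 13.3 and 11.7 in FBSA and 24.2, 18.7 and 19.3 in control. The same ratio for P3H1 was 24.5, 25.4 and 29.7 in FBSA and 35.1, 34.1 and 36.3 in control. The P4HA2 and P3H1 ratios did not overlap between the groups, but both genes were taken with results of this comparison known. For the 3 PLOD genes it was 87.4, 86.4 and 84.4 in FBSA and 104, 82.7 and 89.8 in control, with overlap.

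Among 36 other collagen genes tested, none passed in either direction. At an unadjusted limma p under 0.05, 5 were lower and 0 higher, beside 6.25% and 7.34% of all genes tested. In 9 of the 36 all FBSA libraries lay below all control libraries and in 1 all lay above, beside 9.91% and 10.0% of all genes tested. Their median log2 fold change was -0.08. FBSA replicate 2 stood apart here too, with mean log2 deviations of -0.029, -0.38 and -0.012 in FBSA and 0.11, 0.15 and 0.15 in control, without overlap. A few large falls weigh heavily in this mean: the sparsely read col19a1 (ENSDARG00000096073, -2.26) and col18a1b (-2.08), and COL10A1 (-1.63). The more abundant col18a1a went the other way, at 0.28 ± 0.13 (SE; limma adjusted p = 0.374). The more abundant col19a1 identifier, ENSDARG00000076163, was at -0.38 ± 0.18 (SE; limma adjusted p = 0.395), with overlap. In the whole list 25 genes had a negative log2 fold change and 11 a positive one. The summed normalized counts ran from 42865 to 46580 in FBSA and from 42589 to 45768 in control, with overlap. COL10A1, a collagen of bone-forming and hypertrophic cartilage cells, had 132, 68.5 and 260 normalized counts in FBSA and 504, 320 and 444 in control, a log2 fold change of -1.63 ± 0.37 (SE; limma adjusted p = 0.0790). It passed without FBSA replicate 3 (-2.11; limma adjusted p = 0.0115). The skin hemidesmosome collagen gene col17a1a had -0.81 ± 0.20 (SE; limma adjusted p = 0.109), from 829, 454 and 814 normalized counts in FBSA and 1087, 1294 and 1173 in control. Without FBSA replicate 2 the value for col17a1a was -0.52.

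Among 29 further genes of collagen folding and secretion, none passed in either direction. At an unadjusted limma p under 0.05, 5 were lower and 0 higher, beside 6.25% and 7.34% of all genes tested. In 7 of the 29 all FBSA libraries lay below all control libraries and in 0 all lay above, beside 9.91% and 10.0%. The median log2 fold change was -0.20. FBSA replicate 2 stood apart: the mean log2 deviation of the list from each gene's own mean was 0.041, -0.25 and 0.035 in FBSA and 0.15, -0.0064 and 0.025 in control, with overlap. The summed normalized counts, in which abundant genes weigh most, ran from 45486 to 51420 in FBSA and from 52809 to 54678 in control, without overlap. The endoplasmic reticulum chaperone HSPA5 (BiP) had 4229, 3654 and 3723 normalized counts in FBSA, against 4782, 5551 and 5298 in control. Its log2 fold change was -0.43 ± 0.10 (SE; limma adjusted p = 0.0968), and the other gene of this list with the lowest p was p4ha1a, given above. This list held the other genes of the hydroxylase families too, so it is not separate from them.

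Among 14 genes for the processing and cross-linking of procollagen outside the cell, none passed. At an unadjusted limma p under 0.05, 1 was lower and 0 higher, beside 6.25% and 7.34% of all genes tested. The median log2 fold change was -0.11. In 0 of the 14 all FBSA libraries lay below all control libraries and in 1 all lay above, beside 9.91% and 10.0% of all genes tested. LOXL4, a lysyl oxidase relative, had 74.5, 41.3 and 126 normalized counts in FBSA and 165, 117 and 165 in control, with overlap and a 95% interval of the log2 fold change from -1.78 to -0.23 (limma adjusted p = 0.245). Without FBSA replicate 2 the log2 fold change of LOXL4 was -0.60. LOXL1, another member of that family, had 0.29 ± 0.16 (SE; limma adjusted p = 0.460), and 0.16 without FBSA replicate 1.

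The other oxygenases that use 2-oxoglutarate included the HIF prolyl hydroxylases. None of 11 passed. At an unadjusted limma p under 0.05, 4 were lower and 1 higher, beside 6.25% and 7.34% of all genes tested, and the median log2 fold change was -0.41. In 3 of the 11 all FBSA libraries lay below all control libraries and in 1 all lay above, beside 9.91% and 10.0% of all genes tested. EGLN2, which marks HIF for breakdown, had 61.5, 27.2 and 31.5 normalized counts in FBSA, against 119, 94.9 and 90.9 in control, a log2 fold change of -1.40 ± 0.35 (SE; limma adjusted p = 0.108). The aspartyl and asparaginyl hydroxylase gene asph (ENSDARG00000055945) had 2157, 2154 and 2396 in FBSA and 2818, 3319 and 3050 in control, a log2 fold change of -0.45 ± 0.11 (SE; limma adjusted p = 0.0926). Neither gene overlapped between the groups. The mean log2 deviation of the list was -0.092, -0.19 and -0.27 in FBSA and 0.26, 0.23 and 0.066 in control, without overlap. Its summed normalized counts, in which the asph gene given above weighs most, ran from 3761 to 4143 in FBSA and from 4945 to 5373 in control. These did not overlap either.

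Among 10 genes for the supply of ascorbate and iron, none passed. At an unadjusted limma p under 0.05, 2 were higher and 0 lower, beside 7.34% and 6.25% of all genes tested. The median log2 fold change was 0.17. In 0 of the 10 all FBSA libraries lay below all control libraries and in 2 all lay above, beside 9.91% and 10.0% of all genes tested. The ferritin gene fth1a had 9990, 11812 and 11226 normalized counts in FBSA and 7920, 8143 and 9017 in control (log2 fold change 0.40 ± 0.099 SE; limma adjusted p = 0.109). The iron importer gene slc11a2 had 0.34 ± 0.13 (SE; limma adjusted p = 0.270). The ascorbate transporter gene SLC23A2, chosen for its role after its values were seen, had 0.04 ± 0.19 (SE; limma adjusted p = 0.947).

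Among 36 HIF targets, LDHA fell, beside 0.136% of all genes tested, and the other 35 did not pass. The 36 leave out P4HA1, P4HA2 and PLOD2, named above as HIF targets in mammalian cells, whose log2 fold changes were all negative. Some of the 36 also stood in other lists. The median log2 fold change was 0.12, with 21 positive and 15 negative. At an unadjusted limma p under 0.05, 6 were higher and 7 lower, beside 7.34% and 6.25% of all genes tested. In 4 of the 36 all FBSA libraries lay below all control libraries and in 4 all lay above, beside 9.91% and 10.0%. LDHA, the lactate dehydrogenase gene, had 1267, 1057 and 1678 normalized counts in FBSA, against 2422, 2435 and 2245 in control, a log2 fold change of -0.85 ± 0.15 (SE; limma adjusted p = 0.0225). LDHA lost its call with the replicate number as a block (limma adjusted p = 0.0901) and when FBSA replicate 1, FBSA replicate 2 or any of the 3 control replicates was left out, with limma adjusted p-values of 0.0563 to 0.114.

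**Figure D4:**
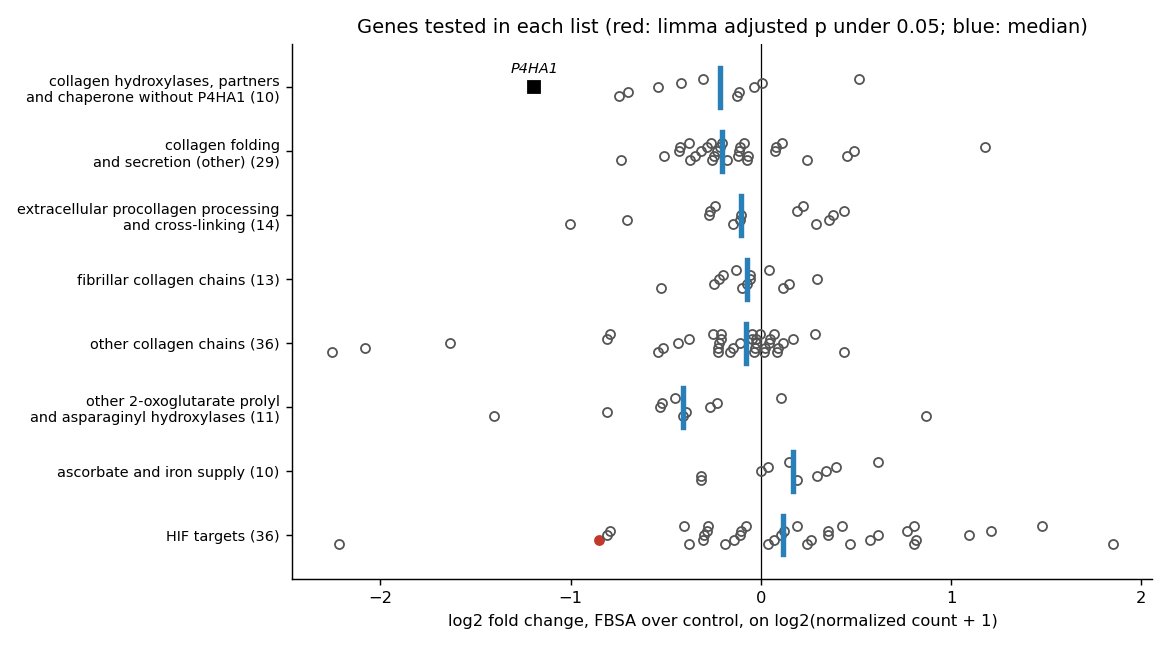
Log2 fold changes of FBSA over control on log2(normalized count + 1) for the genes tested in each list, with the number tested in brackets; circles are genes, red marks a limma adjusted p under 0.05, blue lines are medians and the square is P4HA1, which was chosen for its value. The medians are -0.21 for the other 10 identifiers, -0.20 for folding and secretion, -0.11 for processing, -0.07 and -0.08 for collagens, -0.41 for the other oxygenases, 0.17 for ascorbate and iron supply and 0.12 for HIF targets. The HIF targets leave out P4HA1, P4HA2 and PLOD2.

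Collagen hydroxylases are made by many cell types of the embryo, and markers of the likely ones were read beside them. The summed normalized counts of the cartilage and bone markers ran from 17773 to 19004 in FBSA and from 17058 to 19535 in control. Abundant genes weigh most in such a sum. The mean over the list's genes of the log2 deviation from each gene's own mean, which weighs them equally, was -0.30, -0.25 and -0.11 in FBSA, against 0.28, 0.22 and 0.16 in control, without overlap. None of 18 genes passed, and the median log2 fold change was -0.14. At an unadjusted limma p under 0.05, 3 were lower and 1 higher, beside 6.25% and 7.34% of all genes tested. In 4 of the 18 all FBSA libraries lay below all control libraries and in 1 all lay above, beside 9.91% and 10.0%. The cartilage matrix gene MATN1, with few reads, had 1.73, 2.82 and 3.05 normalized counts in FBSA, against 19.3, 39.1 and 20.4 in control (limma adjusted p = 0.101). COL10A1, given above, also stood in this list. The log2 fold changes of MATN1 (-2.90) and COL10A1 (-1.63) weigh heavily in the mean log2 deviation of the list. Whether that mean separates the groups without them was not tested.

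Notochord marker sums ran from 37828 to 41161 in FBSA and from 34222 to 42187 in control, and of 16 tested 0 passed. Their median log2 fold change was 0.0010, with 9 positive and 7 negative. The lowest p-values were those of COL9A1 (-0.51 ± 0.22 SE; limma adjusted p = 0.320) and COL2A1 (ENSDARG00000011407). The other COL2A1 identifier was at 0.30, and col9a1b, a more abundant relative of COL9A1, at 0.17 ± 0.096 (SE; limma adjusted p = 0.480). COL9A1 had 874, 472 and 933 normalized counts in FBSA and 968, 1036 and 1118 in control, and without FBSA replicate 2 its log2 fold change was -0.20. Sums of fibroblast, tendon and fin fold markers ran from 51328 to 54235 in FBSA and from 52690 to 54001 in control, and of 34 tested 0 passed. The mesenchymal receptor gene PDGFRA was nearest, with 2188, 2588 and 2390 normalized counts in FBSA against 1692, 1616 and 1729 in control (0.51 ± 0.11 SE; limma adjusted p = 0.0624). FOXC1, a paraxial mesoderm factor, had 0.40 ± 0.18 (SE; limma adjusted p = 0.346), and 0.19 without control replicate 2. In 2 of these 34 genes all FBSA libraries lay below all control libraries and in 3 all lay above, beside 9.91% and 10.0% of all genes tested. The part of any of these cell types in the values of the hydroxylases was not tested.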

How the data were processed

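Per the labels' protocols, RNA of pooled whole embryos was sequenced with the Lexogen QuantSeq 3′ FWD kit, with STAR, HTSeq, DESeq2 and the build GRCz11 named in the submitters' processing notes. Neither versions nor the handling of reads that match more than 1 gene are given in the sources used here. The authors deposited log2 values with a floor of 6.52 shared by all libraries, whose variance-stabilised form was worked out from the values. Inverting that scale and multiplying by 1 size factor per library returned reads: 100.0% of values over the floor came within 0.1 of a whole number. Groups came from the labelled treatment.

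The test was limma 3.58.1 (R 4.3.3) on log2(normalized count + 1), for genes that reached 10 normalized counts in 3 libraries (2 groups and no covariate, trended moderation, two-sided, Benjamini-Hochberg over 16890 genes, threshold 0.05). The test was also run on simulated counts in which no library stood apart, unlike in these data, so nothing is concluded from that run. Fold changes on this scale understate changes of low genes. No pair of libraries agreed within sampling noise (chi-square per degree of freedom of 10.7 or more).

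The members and the 12 gene lists were chosen with earlier results of these data known. Of 323 list symbols, 204 matched a symbol, 92 matched a capital stem that lacks the paralogue letter, so that a paralogue may have entered, and 27 had no match. Named genes were all members, their relatives, up to 4 list genes past the threshold, otherwise the 2 with the lowest p, and the 5 nearest profiles. Outside this rule, some genes were added with their values known. They were SLC23A2, col1a1a, col9a1b, col18a1a, col18a1b, both col19a1 identifiers and COL2A1 ENSDARG00000069093. No set test was run. Alternatives covered the pseudocount, filter, scaling, deposited values, limma-voom, robust moderation, the replicate block and left-out libraries. Sequences were not used here. Figures were drawn with matplotlib 3.10.9 in Python 3.11.15.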

Additional observations from a re-analysis of the deposited data

How the results depend on the processing

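None of the 10 identifiers other than P4HA1 passed under any of the 17 alternative settings (P4HA3 gave no value with a filter of 20 normalized counts). P4HA2, PLOD2, P3H1, CRTAP and both SERPINH1 identifiers kept their direction in all 17, and so did P4HA1. The filters, robust moderation and the replicate block leave a fold change as it is, so they could not turn it. Nor could left-out libraries for P4HA1, P4HA2, P3H1 and SERPINH1 ENSDARG00000019949, whose groups did not overlap. P4HA1 was chosen for its fall in these same libraries, and the others with results of them known. The kept directions therefore only describe the libraries and test nothing. P4HA1 lay between -1.32 and -1.04 without single libraries and at -0.87 on the deposited log2 values, a scale that compresses low counts. The signs of P4HA3, P4HB, PLOD1 and PLOD3 turned under some settings. Without both libraries numbered 2 the log2 fold changes were 0.63 for P4HA3, 0.13 for P4HB, 0.021 for PLOD1 and -0.15 for PLOD3. PLOD3 was at -0.026 when scaled by library totals and at -0.044 with limma-voom. Without single libraries the ranges were -1.07 to 0.14 for P4HA3, -0.097 to 0.048 for P4HB, -0.17 to 0.16 for PLOD3, -0.22 to 0.045 for P3H2 and -0.26 to 0.58 for p3h4. The FBSA minus control difference in the P4HA3 share of alpha subunit reads ran from -0.091 to 1.01 percentage points without single libraries. That of the P4HA2 share was 5.04 points with p4ha1a counted too, an alternative chosen after seeing the data, against 6.99. For the P4HA1 share the difference was -7.61 against -7.37. Shares with p4ha1a counted are of a larger total, so they are not the same measure. Of that total p4ha1a supplied a mean of 17.6% in FBSA and 15.4% in control, with overlap.

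In all, 119 genes passed, and 53 to 102 without single libraries; 23 were lower, and 4 to 23 without single libraries. In the 7 pathway lists joined, 1 gene was lower (LDHA), and 0 to 2 without single libraries, 2 on the deposited log2 values and 2 without both libraries numbered 2, in each case of 2 with COL10A1. Correlations of same-numbered deviations were 0.02, -0.14 and -0.0046. Differently numbered libraries were not compared, so whether same-numbered samples shared a clutch or batch was not tested. With the replicate number as a block, 47 genes passed in all, 7 of them lower, and 0 in the pathway lists. Robust moderation added PDGFRA (limma adjusted p = 0.0475). With 2 to 17 reads per library, depth limits P4HA3.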

Other observations

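Among fast skeletal muscle markers, 4 of 26 tested fell, 0 rose and 22 did not pass. Of all genes tested, 0.136% were called lower and 0.568% higher. The 4 that fell were both ACTA1 identifiers, of skeletal actin, the sarcomere gene igfn1.3 and AMPD1, the muscle AMP deaminase gene. This list was written with results of the same data known, so its counts describe it and test nothing. At an unadjusted limma p under 0.05, 7 were lower and 1 higher, beside 6.25% and 7.34% of all genes tested. In 9 of the 26 all FBSA libraries lay below all control libraries and in 1 all lay above, beside 9.91% and 10.0%. The mean log2 deviation of the list from each gene's own mean was -0.028, -0.34 and -0.032 in FBSA, against 0.17, 0.19 and 0.033 in control, without overlap and with FBSA replicate 2 apart. The log2 fold changes of igfn1.3 (-3.66) and AMPD1 (-1.77) weigh heavily in this mean. Whether it separates the groups without them was not tested. The median log2 fold change of the list was -0.05, and its summed normalized counts ran from 1470869 to 1652864 in FBSA and from 1607309 to 1719206 in control. AMPD1 had 953, 371 and 1034 normalized counts in FBSA, against 2709, 2016 and 2681 in control (limma adjusted p = 0.0178, and 0.0630 without control replicate 3). With robust moderation AMPD1 and igfn1.3 lost their calls (limma adjusted p = 0.220 and 0.208), and both ACTA1 identifiers lost theirs without FBSA replicate 1 (limma adjusted p = 0.0562 and 0.0629), ACTA1 ENSDARG00000055618 also without control replicate 3 (limma adjusted p = 0.0627).

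Markers of the main embryonic tissues had 25 identifiers, of which 0 were at 0 in every library and 24 were tested. Of these, the heart peptide gene nppa and the hatching enzyme gene he1.1 rose, 0 fell and 22 did not pass, with a median log2 fold change of 0.06. Of all genes tested, 0.568% were called higher and 0.136% lower. In 1 of the 24 all FBSA libraries lay below all control libraries and in 5 all lay above, beside 9.91% and 10.0% of all genes tested. The gene nppa had 1247, 1234 and 1295 normalized counts in FBSA, against 515, 556 and 618 in control (limma adjusted p = 0.00146). The call of he1.1 was lost with the replicate block (limma adjusted p = 0.0773).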
